A study of Mus musculus with 9 samples.

Results

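The interferon-inducible GTPases are large GTP-hydrolysing proteins that cells make after exposure to interferon. The set described here holds 10 genes of the mouse, chosen by name from the deposited table of 50764 genes. They are the immunity-related GTPases (IRG) Tgtp1, Tgtp2, Iigp1, Igtp, Irgm1 and Irgm2 and the guanylate-binding proteins (GBP) Gbp2, Gbp3, Gbp6 and Gbp7. All 10 passed the filter on low counts. The members were picked with earlier results of these data known, so their values in every comparison below are a description and no result of a test on them is offered as support.

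The RNA was that of hand-picked retinal ganglion cells (the output neurons of the retina) from wild-type adult male mice. Every animal, controls included, had its optic nerve crushed and received 1.5 µL of an adeno-associated virus (AAV2) into the vitreous, and the labels give 14 days for both the virus and the crush. The virus coded for green fluorescent protein (GFP, the control), for Olig2 or for Olig3, and each of these 3 groups holds 3 libraries. Cells bound to beads against the surface protein CD90.2 (Thy1) were picked by hand for GFP fluorescence, a small pool per library. The labels give more than one range for the size of a pool and no number for any one library, so a difference in cell number between libraries cannot be told apart from one in RNA. The strain, the promoter of the virus and whether each library had its own animals were not stated in the labels, so p-values here reflect library-to-library spread alone, part of which could be technical. No uninjured or uninjected eye was analysed here.

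The IRG proteins fall into a regulator and an effector class. Irgm1, Irgm2 and Igtp (also called Irgm3) are regulators that sit on the cell's own membranes and hold the effectors inactive there. Tgtp1, Tgtp2 and Iigp1 are effectors that load onto the membranes of vacuoles around intracellular parasites such as Toxoplasma and help to break them. The GBPs act on the same vacuoles and on bacteria, and they feed into inflammasome activation. Interferon-gamma is the strongest inducer of the family, through gamma-activated sites (GAS) in promoters and through interferon regulatory factors, which bind interferon-stimulated response elements (ISRE).

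Sequences before the RefSeq start of the genes are shown here because interferon-activated factors are known to bind near the start of such genes, and because the members differ there. RefSeq promoters of mouse build GRCm38.p6 (the same assembly as mm10) matched 8 of the 10 members by symbol. Iigp1 and Gbp6 had no entry. In the 250 bases before the start, the letters GAAA, any 2 bases and GAAA again (the ISRE core, searched on both strands) lay in at least 1 promoter of all 8 genes, against 2.98% of the 32851 promoters in the table. The motif TTCNNNGAA (the GAS core, the same on both strands) lay in 5 of the 8, namely Tgtp1, Tgtp2, Irgm2, Igtp and Gbp7, against 7.02% of all promoters. The first 4 sequences below carry a GAS core, 2 bases and then an ISRE core, read 5′ to 3′ on the strand of the gene, with both motifs in capitals.
Tgtp1, chr11:48992289-48992348, minus strand: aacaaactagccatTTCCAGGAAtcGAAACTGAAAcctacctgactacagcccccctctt
Tgtp2, chr11:49064248-49064307, minus strand: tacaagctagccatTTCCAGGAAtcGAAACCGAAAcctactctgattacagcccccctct
Irgm2, chr11:58214888-58214947, plus strand: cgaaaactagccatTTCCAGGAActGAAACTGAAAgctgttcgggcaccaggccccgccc
Igtp, chr11:58199497-58199555, plus strand: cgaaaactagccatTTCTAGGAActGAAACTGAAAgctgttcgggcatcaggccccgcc
Irgm1, chr11:48871430-48871459, minus strand: ctgtttcaaGAAATAGAAACCGAAActgat
Gbp7, chr3:142530258-142530317, plus strand: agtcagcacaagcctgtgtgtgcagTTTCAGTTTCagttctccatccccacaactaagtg
Gbp2, chr3:142620589-142620618, plus strand: taggaactcttttagTTTCACTTTCactgt
Gbp3, chr3:142559990-142560019, plus strand: aggacacagTTTCAGTTTCTATTTCccaga

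The joined pattern of a GAS core, any 2 bases and an ISRE core, searched on both strands after these promoters had been read, was found in 5 of the 32851 promoters. These belong to Tgtp1, Tgtp2, Igtp, Irgm2 and Gm12185, the last a predicted gene of the same family. In the 3 GBP genes the ISRE core lay on the other strand, where it reads TTTC, any 2 bases and TTTC. Irgm1 and Gbp3 each hold a pair of overlapping ISRE cores, which share 4 bases. Counted from the base of the motif nearest to the start, ISRE cores lay from 14 bases (Irgm1) to 67 bases (Tgtp1) before it. Gbp3 has a second RefSeq promoter, which held neither motif. Over 250 bases Igtp and Irgm2 were 68.0% identical and Tgtp1 and Tgtp2 61.5%, while the other pairs of the 8 ran from 35.6 to 48.3%. RefSeq and GENCODE starts differ for some members: the RefSeq start lies 15359 bases inside the GENCODE gene for Irgm2 and 1926 bases inside it for Tgtp1, so those sequences lie within the gene spans given below. Longer windows around the motifs of Irgm1, Gbp2 and Gbp3 overlap GENCODE exons, so these sequences were kept to 30 bases. The printed Gbp3 sequence ends before the GENCODE start of that gene. Such matches are descriptions of letters and show no binding.

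**Figure D1:**
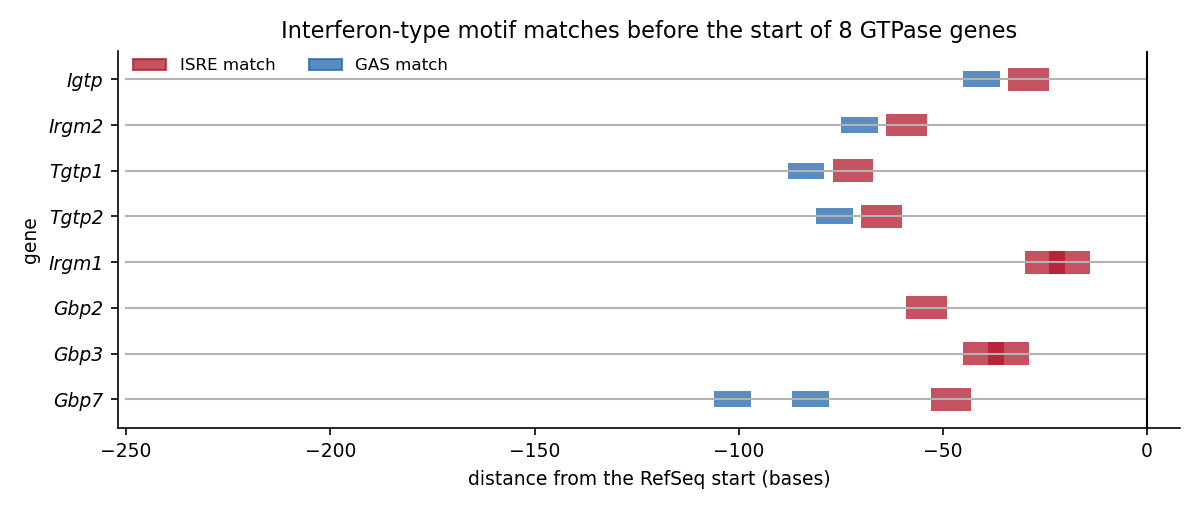
Positions of ISRE core matches (red, tall) and GAS core matches (blue, short) in the 250 bases before the RefSeq start of 8 GTPase genes, with distance from the start in bases on the horizontal axis. In Igtp, Irgm2, Tgtp1 and Tgtp2 a GAS match lies 2 bases before an ISRE match, and in Irgm1 and Gbp3 the darker bar is the overlap of a pair of ISRE matches.

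Some members share reads with a near copy. Tgtp1 (chr11:48985327-48994172) and Tgtp2 (chr11:49057194-49064206) are near-identical: 79.4% of the 50-base stretches of Tgtp1 transcripts occur in Tgtp2 and 85.8% of those of Tgtp2 occur in Tgtp1. How the submitters' counting treated reads that match both was not stated in the labels, so the split between the pair is uncertain and their sum is given as well. Gbp6 (chr5:105270702-105293698) shares 65.0% of its 50-base stretches with the neighbouring model Gm43302, which had at most 1 count in any library. Igtp (chr11:58199556-58207591) and Irgm2 (chr11:58199618-58222782) share 162 bases of exon on one strand. For Irgm1 (chr11:48861968-48871683), Iigp1, Gbp2 (chr3:142620602-142638008) and Gbp3 (chr3:142560026-142573209) at most 3.75% of such stretches occur in another gene, and for Gbp7 (chr3:142530342-142550149) 12.7%.

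Library totals ran from 5355691 to 6979851 counts, so the limit that a count of 0 allows, 3 counts, stood for 0.430 to 0.560 CPM (counts scaled to a common library total). Reads were amplified without molecular identifiers, so intervals and limits of this kind cover counting error only. Genes with at least 1 count numbered 16188 in Olig3 library 1 and 14434 in Olig3 library 3, against 18184 to 21338 in the other 7 libraries. Malat1 took 11.7 and 6.15% of the counts in Olig2 libraries 2 and 3 and 8.54% in Olig3 library 2, against 2.65 to 4.14% elsewhere. Of the delivered factors, Olig2 had 0 counts in each GFP library and 114, 97 and 21 in the Olig2 libraries, and Olig3 had 172, 113 and 597 counts in the Olig3 libraries against 0 to 40 elsewhere. The 11 ganglion cell markers summed to 762 to 1491 CPM with GFP, 209 to 360 with Olig2 and 182 to 295 with Olig3, where 4 of 11 were detected in library 3. These 4 were Isl1 (647 counts), Tubb3 (238), Nefl (131) and Nefm (60), while Rbpms, Slc17a6, Thy1 and Sncg had 0 counts there. Isl1 was also the largest of the 11 in Olig2 library 1 (576 counts). The 12 rod markers summed to 47592 to 73637, 79014 to 138601 and 60519 to 150790 CPM, so the picks carried far more rod than ganglion cell marker RNA. The 9 cone markers summed to 517 to 1325, 687 to 1791 and 2004 to 7436 CPM. The part of these shifts in the GTPase values was not tested. In pooled cells of this kind, fewer cells of a type and less RNA per cell cannot be told apart.

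In short, each of the 10 GTPases was detected in every GFP and every Olig2 library, and the mean of 9 of them was lowest with Olig3. The exception was Gbp3, whose highest library of all was Olig3 library 1. Igtp kept 186, 28 and 268 counts in the Olig3 libraries. In their highest Olig3 library Irgm1, Irgm2, Gbp2 and Gbp7 had 84, 43, 33 and 199 counts. Added up, the GTPases reached 608 ± 266 CPM after GFP virus, 393 ± 167 after Olig2 virus and 68.5 ± 43.6 after Olig3 virus (SD, n = 3 each). By library the sums were 649, 324 and 851 CPM with GFP, 583, 318 and 276 CPM with Olig2 and 119, 40.3 and 46.4 CPM with Olig3. The GFP and Olig2 libraries overlapped, and every Olig3 library lay below all 6 of them. The sum in the GFP group was 8.88 times that in the Olig3 group. No member was at 0 in any GFP or Olig2 library, whereas 3, 1 and 8 of the 10 were at 0 in Olig3 libraries 1, 2 and 3. After scaling for RNA composition (TMM, defined below), every Olig3 library lay below every GFP library for 8 of 10 members. This was so for 10.0% of the 15609 genes tested (7.18% lay above). On the same scale every Olig3 library lay below every Olig2 library for 9 of 10, against 8.69% of tested genes (4.41% lay above). In unscaled counts Igtp (268 in Olig3 library 3, 224 in Olig2 library 3) and Gbp7 (199 in Olig3 library 1, 190 in Olig2 library 3) overlapped the Olig2 group. Of all tested genes, 15.1, 1.84 and 18.5% were at 0 in Olig3 libraries 1, 2 and 3.

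**Figure D2:**
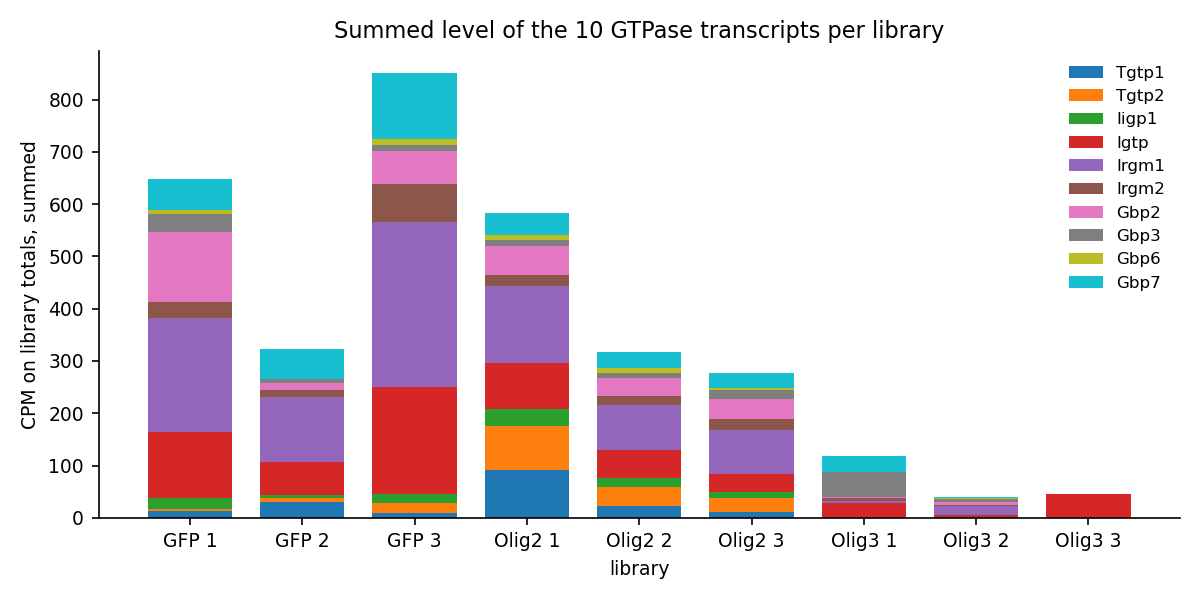
Summed level of the 10 GTPase transcripts in each of the 9 libraries, in CPM on library totals, with 1 colour per gene. The GFP and Olig2 libraries reach 276 to 851 CPM and the Olig3 libraries 40.3 to 119 CPM, where the largest part of library 1 is Gbp3 and that of library 3 almost all Igtp.

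The effector pair Tgtp1 and Tgtp2, first described in T cells, showed the widest range of the set. Tgtp1 had 78, 205 and 59 counts in the GFP libraries, 591, 128 and 71 with Olig2 and 0, 1 and 0 with Olig3. Tgtp2 had 17, 58 and 115 counts with GFP, 533, 188 and 180 with Olig2 and 1, 0 and 0 with Olig3. In Olig3 libraries both genes were thus at or under the limit set by counting, and no Olig3 library overlapped any other. Pooled over the libraries of a group, the pair summed to 532 counts with GFP, 1691 with Olig2 and 2 with Olig3. The ratio of the pooled levels was 246 for GFP over Olig3 (95% counting interval 67.8 to 2036) and 804 for Olig2 over Olig3 (222 to 6641).

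The pair was also the part of the set that stood highest with Olig2. Scaled with TMM factors, which correct library totals for differences in RNA composition, the sum of Tgtp1 and Tgtp2 was 93.6 ± 59.8 CPM with Olig2 and 23.6 ± 9.59 CPM with GFP, and every Olig2 library lay above every GFP library. Olig2 library 1 stood highest at 160 CPM, against 75.3 and 45.0 CPM in libraries 2 and 3, and without it the edgeR log2 change of Tgtp1 was 0.48 and that of Tgtp2 2.16. On plain library totals the groups met, with 37.7 CPM in GFP library 2 and 37.0 CPM in Olig2 library 3. Taken singly, only Tgtp2 was free of overlap (8.43 ± 6.49 against 51.1 ± 22.5 CPM), while Tgtp1 (15.2 ± 9.56 against 42.5 ± 37.3 CPM) overlapped. Among all tested genes, 8.47% were free of overlap and higher with Olig2. The edgeR log2 change of Tgtp2 was 2.59 (SE 0.73, Benjamini-Hochberg adjusted p = 0.553) and that of Tgtp1 1.48 (SE 0.79, edgeR adjusted p = 1.00), so neither passed the threshold of 0.05.

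Iigp1 (Irga6), the third effector, also had its highest mean with Olig2 and its lowest with Olig3. It had 124, 39 and 115 counts with GFP, 210, 97 and 88 with Olig2 and 0, 5 and 0 with Olig3. Only Olig3 library 2 held more of it than the counting limit. Its mean was 13.0 ± 7.12 CPM with GFP, 23.0 ± 7.09 with Olig2 and 0.417 ± 0.722 with Olig3, a ratio of 31.1 between GFP and Olig3. The edgeR log2 change of Olig3 against GFP was -5.13 (SE 1.31, adjusted p = 0.158).

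Of the regulators, Irgm1, which acts in autophagy and in the upkeep of mitochondria, held the most counts of the set. It had 1281, 873 and 1991 counts with GFP, 938, 467 and 578 with Olig2 and 15, 84 and 6 with Olig3. The lowest GFP or Olig2 library had 467 counts and the highest Olig3 library 84, so the Olig3 group did not overlap the others. The mean was 189.7 ± 77.9 CPM with GFP and 8.03 ± 11.3 CPM with Olig3, a 23.6-fold difference that missed the threshold (edgeR log2 change -4.65, SE 0.87, adjusted p = 0.0656). With Olig2 it stood at 116 ± 15.7 CPM (log2 change against GFP -0.71, SE 0.73, edgeR adjusted p = 1.00).

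Irgm2, a regulator found at the Golgi, had 180, 88 and 459 counts with GFP, 138, 92 and 136 with Olig2 and 43, 9 and 0 with Olig3. Its highest Olig3 library, library 1, lay below the lowest library of the other groups. Means were 33.2 ± 25.7, 22.01 ± 2.36 and 2.86 ± 3.21 CPM in the GFP, Olig2 and Olig3 groups. The GFP libraries varied most, and the edgeR adjusted p of Olig3 against GFP was 0.258 (log2 change -3.52, SE 1.09).

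Igtp, a regulator at the endoplasmic reticulum and lipid droplets, was the member with the smallest drop among those free of overlap. It had 741, 443 and 1294 counts with GFP, 572, 294 and 224 with Olig2 and 186, 28 and 268 with Olig3. Its counts in Olig3 library 3 made up 97.8% of that library's sum, in which the only other member present was Irgm1 with 6 counts. Scaled means were 113 ± 58.5, 64.0 ± 21.4 and 24.6 ± 16.3 CPM, and after scaling the highest Olig3 library (39.3 CPM) lay just below the lowest Olig2 library (40.2 CPM), an order that the unscaled counts do not show. The edgeR log2 change of Olig3 against GFP was -2.19 (SE 0.57, adjusted p = 0.168).

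Among the GBPs, Gbp2, a lipid-anchored member that coats parasite vacuoles, had 774, 90 and 390 counts with GFP, 357, 184 and 260 with Olig2 and 8, 33 and 0 with Olig3. Every Olig3 library lay below all others, with a mean of 3.14 ± 4.46 CPM against 59.8 ± 52.6 with GFP and 47.2 ± 3.56 with Olig2. Gbp7, which has been tied to assembly of the phagocyte oxidase, had 348, 401 and 795 counts with GFP, 276, 173 and 190 with Olig2 and 199, 14 and 0 with Olig3. After scaling it was lower in every Olig2 library than in any GFP library (69.8 ± 31.7 against 38.2 ± 3.71 CPM), the only member of which that was true, and lower again with Olig3 (10.9 ± 16.03 CPM). Its highest Olig3 library (29.3 CPM) lay below its lowest Olig2 library (34.1 CPM) after scaling, an order that the unscaled counts do not show. Among all tested genes, 8.35% were free of overlap and lower with Olig2. The edgeR adjusted p of Olig3 against GFP was 0.177 for Gbp2 (log2 change -4.35, SE 1.14) and 0.356 for Gbp7 (log2 change -2.66, SE 1.08).

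Gbp3 and Gbp6 were the members whose Olig3 libraries overlapped the GFP group. Gbp3 had 211, 56 and 80 counts with GFP, 70, 53 and 121 with Olig2 and 312, 34 and 0 with Olig3. Olig3 library 1 thus held the highest Gbp3 count of the series, 40.8% of that library's summed GTPase counts, and Olig3 library 3 held none. The direction of Gbp3 with Olig3 was not settled: edgeR, which weighs counts, gave a log2 change of 0.15 (SE 1.26, adjusted p = 0.978), limma-voom -2.19 and the difference in mean log2 CPM -1.44. Gbp6, of the chromosome 5 cluster, had 45, 6 and 71 counts with GFP, 61, 49 and 24 with Olig2 and 0, 8 and 0 with Olig3, and it overlapped through GFP library 2 alone (edgeR log2 change -3.15, SE 1.68, adjusted p = 0.488).

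**Figure D3:**
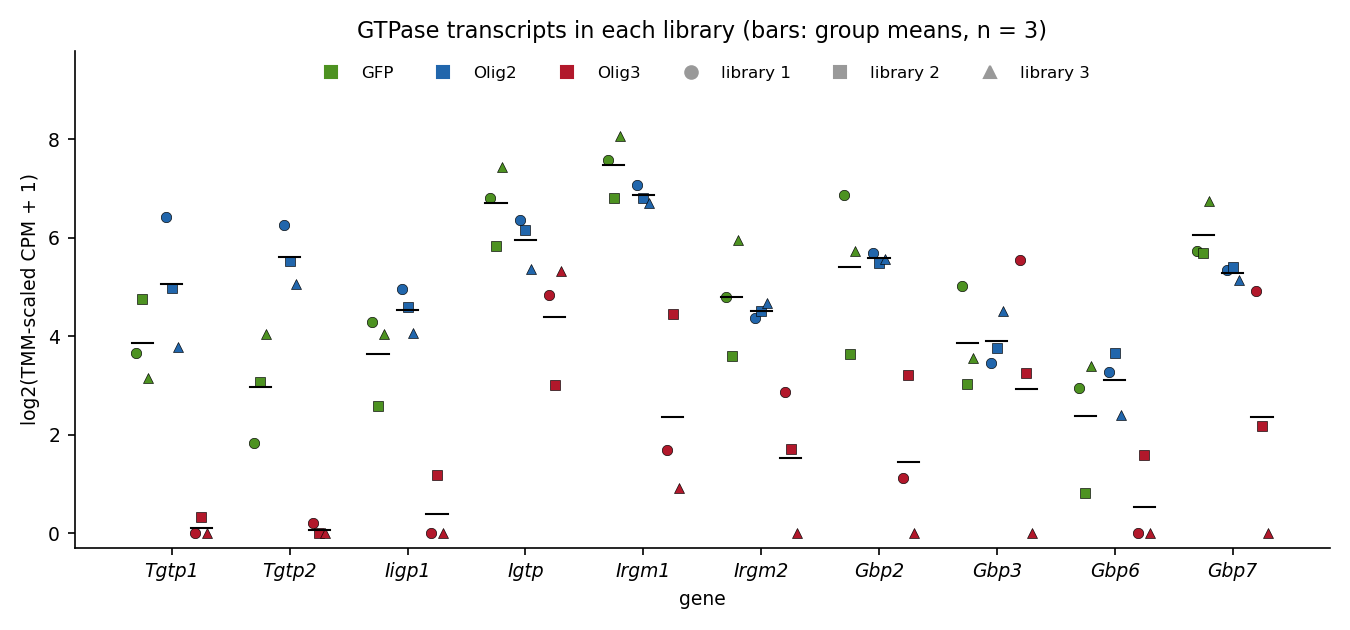
Level of each GTPase transcript in each library as log2(TMM-scaled CPM + 1), with groups by colour, library numbers by marker and the mean of the plotted values as a bar (n = 3 per group). The Olig3 points lie below all others for 8 genes, while those of Gbp3 (libraries 1 and 2) and Gbp6 (library 2) do not lie below all GFP points.

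Per kilobase of exon, Igtp had the highest level of the set in the GFP group (56.1 ± 29.0 CPM per kilobase), followed by Irgm1 (32.6 ± 13.4), Gbp2 (23.8 ± 20.9), Gbp7 (12.4 ± 5.65) and Irgm2 (8.99 ± 6.97). Below them came Gbp3 (5.04 ± 4.05), Tgtp1 (4.74 ± 2.98), Tgtp2 (2.87 ± 2.21), Iigp1 (2.23 ± 1.22) and Gbp6 (0.952 ± 0.751 CPM per kilobase). Of these 9 steps only the last, from Iigp1 to Gbp6, was larger than the larger SD of the pair, so most of the order is not separable with 3 libraries. Igtp was highest per kilobase in each of the 6 GFP and Olig2 libraries. With Olig2, the means of Tgtp2 (17.4 ± 7.67) and Tgtp1 (13.3 ± 11.6 CPM per kilobase) stood above those of Gbp7 and Irgm2, whereas with GFP they stood below both. The step from Tgtp1 to Gbp7 with Olig2, 6.46 CPM per kilobase, was smaller than the SD of Tgtp1, so that part of the order is not separable either. In Olig3 libraries the leading member differed, with Gbp3 in library 1, Irgm1 in library 2 and Igtp in library 3. These levels assume that the whole annotated exon length is transcribed.

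Set against GFP in the fit of all genes, 2 of the 10 members, Tgtp1 and Tgtp2, passed the threshold as lower with Olig3 and 0 as higher. Over all tested genes 0.109% passed as lower and 0.0961% as higher. The edgeR log2 change was -7.57 for Tgtp1 (SE 1.22, adjusted p = 0.0363) and -6.80 for Tgtp2 (SE 1.07, adjusted p = 0.0363), from genes with a single count in the Olig3 group, so the fitted sizes depend on the prior count. At an unadjusted p under 0.05, 8 members were lower and 0 higher by edgeR, where 6.37% of all genes were lower and 5.76% higher. The median difference in mean log2 CPM over the 10 members was -4.30, beside -0.18 over all tested genes.

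The count of 2 was not stable: it became 0 without any 1 of the 3 GFP, the 3 Olig2 libraries or Olig3 libraries 1 or 3, and 5 without Olig3 library 2. It was also 0 by limma-voom, with only the pair of groups fitted, and with the replicate number as a block, and 6 by DESeq2. DESeq2 gave Gbp7 no p-value and called 502 of all 15609 tested genes, 216 of them higher. With each library left out, edgeR called from 0 to 505 genes of the table. Without Olig3 library 2 the edgeR log2 changes of Irgm1, Iigp1 and Gbp2 were -6.92, -9.41 and -6.62, with adjusted p of 0.00266, 0.0164 and 0.0254, and that of Gbp6 was -8.22. Without Olig3 library 1 those of Irgm2 and Gbp7 were -5.02 and -5.49. Over all alternatives the edgeR, DESeq2 or limma-voom adjusted p of Tgtp1 ran from 3.38e-10 to 0.441 and that of Tgtp2 from 1.96e-08 to 0.360. The sign was steadier, since 9 of 10 members, all but Gbp3, had a negative log2 change under every alternative run. Leaving out Olig3 libraries 1 and 3, those with few detected genes, gave a median of -3.21. In Olig3 library 2 alone, 8 of 10 members (all but Gbp3 and Gbp6) lay below every GFP library, against 21.9% of all tested genes, and 10 of 10 below every Olig2 library, against 22.9%. The median over members in that library was -3.23 relative to the GFP mean on the log2 CPM scale, beside 0.06 for all genes.

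Between the factors, Olig3 against Olig2, the same pair passed as lower: Tgtp2 with an edgeR log2 change of -9.39 (SE 1.11, adjusted p = 0.0132) and Tgtp1 with -9.06 (SE 1.25, adjusted p = 0.0365). Over all tested genes 0.0384% passed as lower and 0 as higher by edgeR (at an unadjusted p under 0.05, 7 members were lower and 0 higher, beside 3.05 and 2.07% of all genes). Gbp3 was the member that overlapped after TMM scaling, and in unscaled counts Igtp and Gbp7 overlapped too. The median over members was -4.27, beside -0.23 for all genes. This comparison uses the same Olig3 libraries as that against GFP, so the values are given side by side only. The count of 2 was 0 without Olig2 library 1, Olig3 library 1 or Olig3 library 3, 1 without GFP library 3 or Olig2 library 2, and 5 without Olig3 library 2. Over all tested genes the calls ran from 2 to 160 with each library left out.

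With Olig2 against GFP no member passed by edgeR, DESeq2 or limma-voom, and at an unadjusted p under 0.05 by edgeR 1 was higher (Tgtp2) and 0 lower, beside 2.61 and 2.08% of all genes. The adjusted threshold was passed by 0.0384% of all genes as higher and 0.0128% as lower. The median over members was 0.12 and that over all genes 0.06. It was 0.80 without GFP library 1 and -0.55 without GFP library 2. By the fitted sign 6 members were lower (the 3 regulators, Gbp2, Gbp3 and Gbp7) and 4 higher (the 3 effectors and Gbp6).

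**Figure D4:**
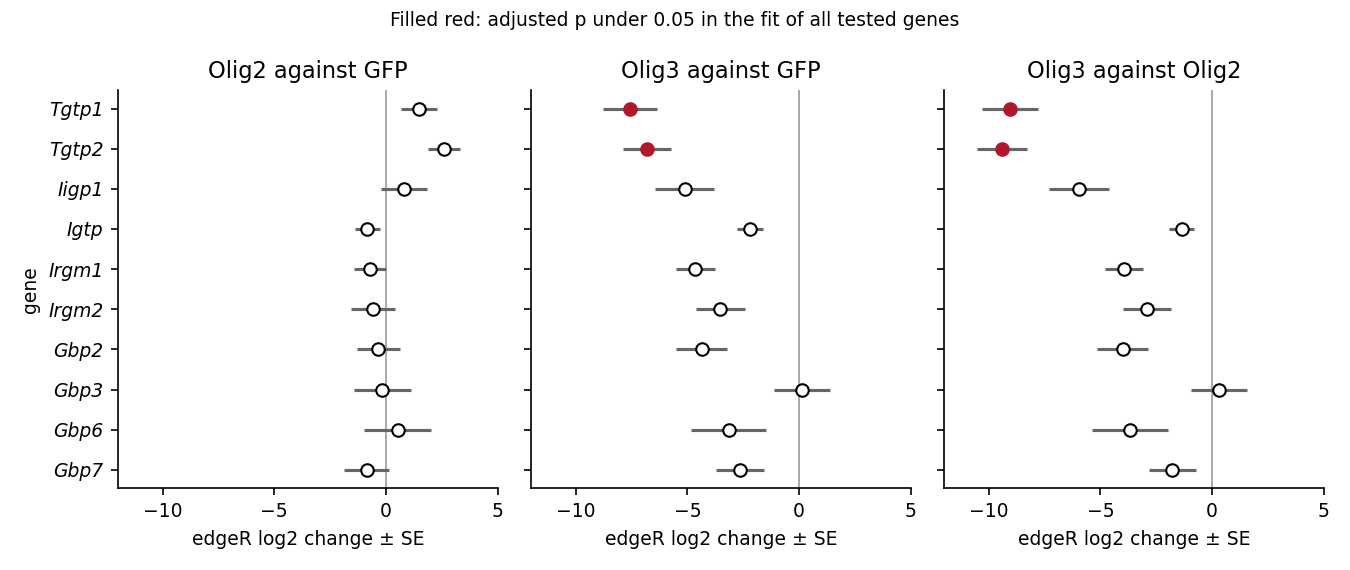
edgeR log2 change with its standard error for each GTPase gene in the 3 comparisons, on a log2 axis. Filled red points passed an adjusted p of 0.05 over all 15609 genes: Tgtp1 and Tgtp2 in both comparisons with Olig3, and none with Olig2 against GFP.

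The members varied with each other over the 9 libraries, most closely Irgm2 with Gbp7 (Pearson r of log2 CPM 0.96), Irgm1 with Gbp2 (0.96) and Iigp1 with Gbp2 (0.95), and least Igtp with Gbp3 (0.10). Over the 6 GFP and Olig2 libraries alone these values were 0.68, 0.50, 0.77 and 0.00, so much of the likeness came from the gap to the Olig3 libraries. Iigp1 and Gbp6, an effector and a GBP on different chromosomes, had 0.92 over the 6, and Irgm1 with Igtp 0.95. Within the GFP group, library 2 was the lowest for Irgm1, Irgm2, Igtp, Iigp1, Gbp2, Gbp3 and Gbp6, yet it had the highest Tgtp1 count. All points share library preparation and depth, so these are descriptions.

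Of all genes outside the set, 8 had the pattern most like the mean of the standardised members over the 9 libraries. They were Btc, an epidermal growth factor family ligand (Pearson r = 0.97), Tes (0.96), Nlrc5, the transactivator of class I histocompatibility genes (0.95), Pced1a (0.95), H2-M3, a non-classical class I molecule (0.95), Cpne5 (0.95), Oxnad1 (0.94) and B3glct (0.94). H2-M3 had 124, 57 and 153 counts with GFP, 132, 39 and 92 with Olig2 and 0, 5 and 0 with Olig3. None of the 8 passed the threshold in any comparison by edgeR, and the lowest adjusted p among them was 0.148 (B3glct, Olig3 against GFP, log2 change -5.53).

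The rest of the family holds 16 further IRG and GBP genes. Of these, 8 passed the filter on low counts, and 0 passed the threshold in any comparison by edgeR. The rest had too few counts to be tested, and Gm12187 and Gm5431 had 0 counts in every library. In Olig3 against GFP 4 were lower at an unadjusted p under 0.05, beside 6.37% of all tested genes, and all 8 had a negative edgeR log2 change, beside 52.9%, with a median difference in log2 CPM of -3.11. Genes at or near 0 with Olig3, such as Gm12250, passed the filter through the other groups, so these signs are a description. For F830016B08Rik, with 0, 0 and 11 counts with GFP and 1, 5 and 0 with Olig3, the difference in mean log2 CPM was 0.12. Ifi47 (Irgd), an IRG, had 278, 55 and 75 counts with GFP, 464, 124 and 143 with Olig2 and 0, 4 and 0 with Olig3 (edgeR log2 change -6.12, SE 1.26, adjusted p = 0.0841). Gm12250 (Irgb10), which acts on bacterial membranes, had 15, 52 and 45 counts with GFP, 39, 14 and 23 with Olig2 and 0 in every Olig3 library, at least 34.5-fold lower than with GFP against a limit of 3 counts over the group (edgeR adjusted p = 0.133). Gbp4 had 186, 28 and 10 counts with GFP and 0, 8 and 0 with Olig3, and Gbp8 had 21, 0 and 58 with GFP, 90, 52 and 38 with Olig2 and 0, 1 and 0 with Olig3 (edgeR adjusted p = 0.342 and 0.305). With Olig2 against GFP the median of the 8 genes was 0.98 and 0 lay at an unadjusted p under 0.05.

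Genes of interferon-gamma (type II) signalling gave a mixed picture with Olig3. Ifng, the gene of interferon-gamma itself, had 0 counts in 7 libraries, 21 in Olig2 library 2 and 1 in Olig3 library 1. Its receptor chains were present throughout, Ifngr1 at 71.2 ± 45.1, 43.7 ± 25.2 and 57.5 ± 20.1 CPM and Ifngr2 at 30.2 ± 10.2, 18.1 ± 3.18 and 18.1 ± 6.22 CPM in the GFP, Olig2 and Olig3 groups (SD, n = 3). Neither passed the threshold against GFP by edgeR, where the lowest adjusted p was 0.579. Their log2 changes with Olig2 and Olig3 were -0.71 and -0.31 for Ifngr1 (SE 0.50 and 0.49) and -0.74 and -0.74 for Ifngr2 (SE 0.48 and 0.48). Irf1, an interferon regulatory factor, stood at 29.8 ± 3.32, 35.4 ± 3.75 and 10.8 ± 7.36 CPM (edgeR adjusted p of Olig3 against GFP 0.311). Irf8, a factor of myeloid cells, had 104, 126 and 284 counts with GFP, 362, 107 and 109 with Olig2 and 1, 24 and 0 with Olig3 (edgeR adjusted p = 0.297). Socs1, the feedback inhibitor of the receptor kinases, had 67, 19 and 116 counts with GFP and 0 in every Olig3 library, at least 62.3-fold lower against the same limit (edgeR adjusted p = 0.0858). Ciita, the transactivator of class II genes, had 14, 70 and 14 counts with GFP and 0, 1 and 0 with Olig3 (edgeR adjusted p = 0.262). Of the 12 tested genes of this list 0 passed the threshold by edgeR in any comparison, and 5 were lower and 1 higher at an unadjusted p under 0.05 with Olig3 against GFP, beside 6.37 and 5.76% of all tested genes.

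In the list of type I and III interferon signalling 1 gene passed the threshold in both comparisons with GFP. Irf7, the amplifier of type I interferon production, fell with both factors, with 1189, 1158 and 1252 counts with GFP, 182, 156 and 139 with Olig2 and 381, 122 and 344 with Olig3 (edgeR log2 change -2.49, SE 0.30, adjusted p = 0.0127 and -1.84, SE 0.29, adjusted p = 0.0363). The list holds 9 tested genes, and 4 of them were lower at an unadjusted p under 0.05 in each comparison, beside 2.08% of all tested genes with Olig2 and 6.37% with Olig3. The ligand genes Ifnb1, Ifna2, Ifna4, Ifnk, Ifne and Ifnl3 had 0 counts in every library. Stat2, Irf9 and Usp18 stood at 33.4 ± 4.80, 71.9 ± 8.996 and 14.1 ± 6.28 CPM with Olig2 against 75.7 ± 23.9, 141 ± 75.2 and 72.9 ± 46.0 CPM with GFP, where the lowest edgeR adjusted p was 0.412. All 9 had a negative log2 change with Olig2, with a median difference of -0.85, and 8 of 9 had one with Olig3, with a median of -1.75. Both comparisons use the same GFP libraries. The Irf7 calls did not last: with Olig3 no gene of the table passed by edgeR without any 1 of the 3 GFP or 3 Olig2 libraries or Olig3 library 1, with the replicate block or with only the pair of groups. With Olig2 no gene passed without GFP library 1, GFP library 3 or Olig2 library 1.

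Of 26 tested genes of a list of other interferon-induced genes, 0 passed the threshold against GFP by edgeR, 7 were lower at an unadjusted p under 0.05 with Olig2 (2.08% of all tested genes) and 12 with Olig3 (6.37%), and the medians were -1.24 and -2.35, beside 0.06 and -0.18 over all tested genes. Ifit1, which binds foreign RNA caps, had 474, 241 and 952 counts with GFP, 94, 62 and 91 with Olig2 and 349, 124 and 354 with Olig3 (edgeR adjusted p = 0.244 and 0.534). Eif2ak2, the RNA-activated kinase PKR, stood at 41.8 ± 24.7, 11.1 ± 2.43 and 5.16 ± 2.18 CPM and Rtp4 at 54.4 ± 22.2, 20.5 ± 6.23 and 13.7 ± 4.11 CPM in the GFP, Olig2 and Olig3 groups. Psmb9, an immunoproteasome subunit, stood at 33.5 ± 7.30 and 33.2 ± 7.36 CPM with GFP and Olig2 and at 6.92 ± 3.79 CPM with Olig3 (edgeR adjusted p = 1.00 and 0.108). Whether the GTPase and the type I gene lists differ from each other in their response to Olig2 was not tested.

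**Figure D5:**
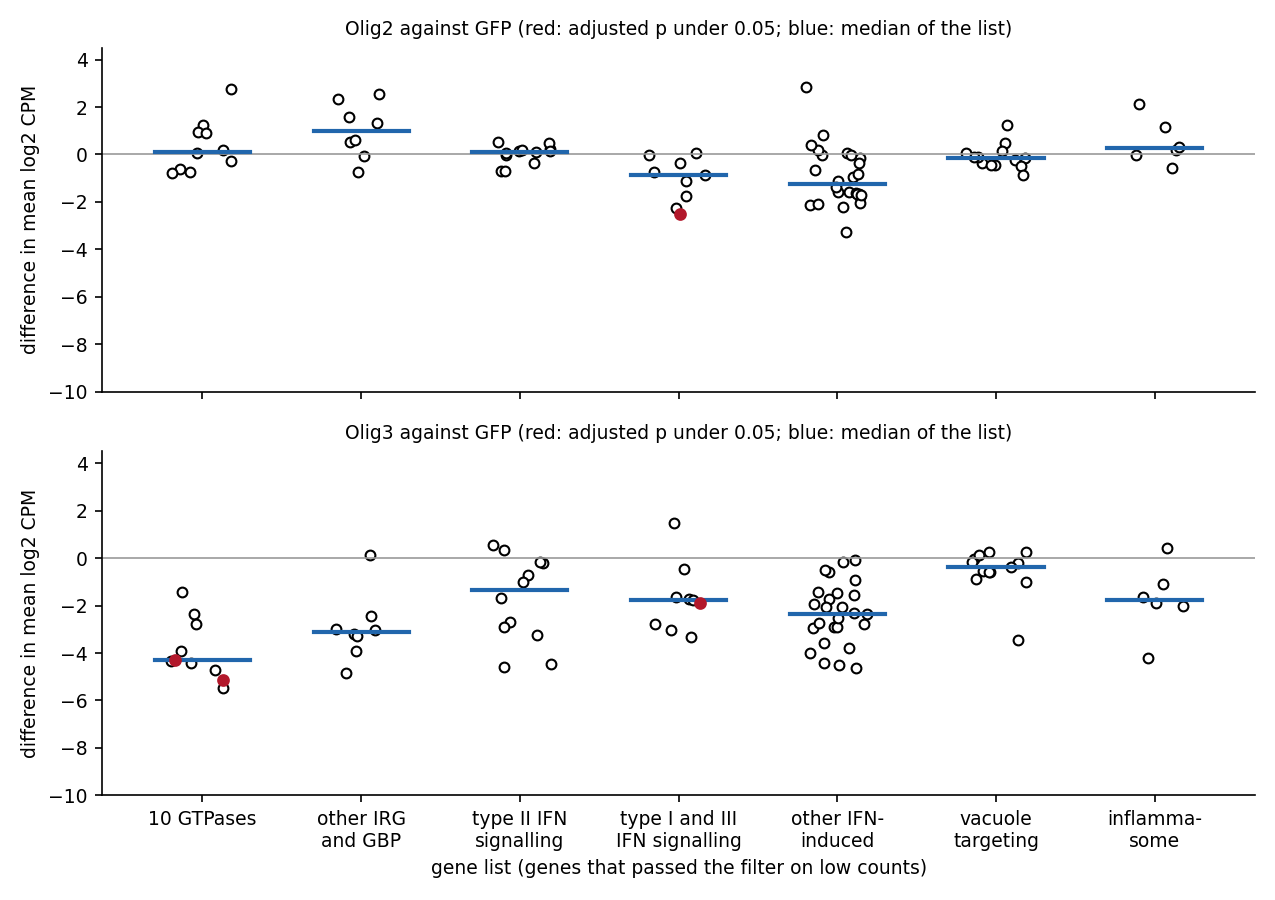
Difference in mean log2 CPM of each tested gene of 7 lists, Olig2 against GFP above and Olig3 against GFP below, with the list median as a blue line and genes past an adjusted p of 0.05 in red. With Olig2 the GTPase lists have medians of 0.12 and 0.98 while type I signalling (-0.85) and other interferon-induced genes (-1.24) lie below 0, and with Olig3 the GTPase lists lie lowest (-4.30 and -3.11).

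Of 13 genes of the machinery that marks vacuoles for IRG and GBP loading 0 passed the threshold in any comparison by edgeR, 2 with Olig2 and 4 with Olig3 were lower than GFP at an unadjusted p under 0.05 (2.08 and 6.37% of all tested genes), and the medians were -0.17 and -0.39. Gabarap and Gabarapl1, ubiquitin-like proteins of autophagy, stood at 135 ± 12.6 and 242 ± 81.3 CPM with GFP, 96.1 ± 13.2 and 173 ± 12.5 with Olig2 and 72.9 ± 14.5 and 156 ± 26.3 with Olig3. Sqstm1, the autophagy receptor p62, stood at 309.8 ± 99.8 CPM with GFP, 165 ± 5.35 with Olig2 and 155 ± 45.2 with Olig3 (edgeR adjusted p = 0.665 and 0.205). Trim21, a ubiquitin ligase that is itself induced by interferon, had 75, 42 and 126 counts with GFP and 0, 9 and 5 with Olig3 (edgeR adjusted p = 0.302). Of 6 inflammasome genes 0 passed by edgeR, and 1, Il1b, was lower with Olig3 at an unadjusted p under 0.05 (0, 551 and 161 counts with GFP, 3, 0 and 0 with Olig3, adjusted p = 0.263). Casp1, the caspase that cuts its product, had 30, 33 and 0 counts with GFP and 0, 4 and 0 with Olig3, and Gsdmd, the pore protein, 22, 4 and 6 with GFP, 60, 30 and 22 with Olig2 and 0, 3 and 0 with Olig3. Pycard, the adaptor, had the opposite sign, with 21, 27 and 47 counts with GFP, 22, 17 and 58 with Olig2 and 8, 17 and 212 with Olig3 (edgeR log2 change 1.50, SE 1.15, adjusted p = 0.648). The antiviral GTPase Mx2 had 67, 115 and 118 counts with GFP, 0, 5 and 28 with Olig2 and 0, 23 and 17 with Olig3 (edgeR adjusted p = 1.00 and 0.613).

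Markers of immune cells, which express these GTPases, are given here beside the set. The 10 T cell markers summed to 5.47, 44.3 and 48.8 CPM in GFP libraries 1, 2 and 3, where the GTPases summed to 649, 324 and 851 CPM. In GFP library 1 only 1 of the 10, Lck, was detected. With Olig2 the T cell sums were 124, 27.4 and 71.7 CPM, beside GTPase sums of 583, 318 and 276 CPM. With Olig3 they were 0 to 2.99 CPM, and 7 of 10, among them Cd3d, Cd3e and Cd3g, had no count. Of all tested genes, 15.1, 1.84 and 18.5% were at 0 in Olig3 libraries 1, 2 and 3 taken singly. The 8 natural killer cell markers summed to 9.67 to 35.7, 16.8 to 62.1 and 0 to 0.560 CPM. Of these, 4 (Ncr1, Gzma, Gzmb and Prf1) had no count in the GFP group and 6 had none in the Olig3 group. In GFP library 1 the sum was almost all Eomes (208 counts), a factor that some ganglion cells also express. The 15 microglia and macrophage markers summed to 74.1 to 697 CPM with GFP, 92.8 to 469 with Olig2 and 94.7 to 237 with Olig3, so their ranges overlapped, and only Ccr2 had no count in the Olig3 group. The 9 B and plasma cell markers summed to 17.8 to 87.5, 2239 to 8734 and 25.8 to 48.0 CPM, and the 9 markers of Müller glia to 2362 to 4671, 2054 to 2472 and 697 to 2522 CPM. The part of these cells, of the number of detected genes and of the Malat1 share in the GTPase values was not tested.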

How the data were processed

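The authors deposited raw read counts per gene for 9 libraries, made with SMART-Seq HT from polyadenylated RNA. Per the submitters' processing notes, FastQC, HISAT2 and HTSeq were used with build mm10, and their settings for strand and for reads with several matches were not stated. The 89 rows without a gene name stayed in the library totals and the fit, and were left out only of the search for genes most like the members. Library totals ran from 5355691 to 6979851 counts. Counts were tested with edgeR 4.0.16 (quasi-likelihood, TMM factors, filterByExpr) in R 4.3.3, with 1 mean per group over all 9 libraries, 6 residual degrees of freedom and Benjamini-Hochberg adjustment over 15609 genes at 0.05. Differences in mean log2 CPM used a prior count of 2. DESeq2 1.42.0, limma 3.58.1 (voom), other scalings and filters, a replicate block and each library left out were alternatives. The members and lists were chosen with earlier results of these data known. Named genes are the members, the delivered factors, up to 4 genes of each list (those past the threshold, then by smallest unadjusted p against GFP), Ifng, its receptors, Irf1 and the 8 genes most like the members, and 1 gene of the rule is not reported here. Other genes were named after their values were seen. Gene positions are those of GENCODE on mm10, and motifs were searched in RefSeq promoters.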

Additional observations from a re-analysis of the deposited data

How the results depend on the processing

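Counts of calls depended on the processing, and the cause was not tested. Genes passing in Olig2 against GFP, 8 by edgeR, were 176 without a filter on low counts, 90 by DESeq2, 23 with only the pair of groups, 41 without the 2 Olig3 libraries with few detected genes, 5 without the 3 libraries rich in Malat1 and 0 to 24 with each library left out. Members passing there, 0 by edgeR, were 1 without a filter and 0 with each library left out. Genes passing in Olig3 against GFP, 32 by edgeR, were 556 without a filter, 502 by DESeq2, 78 by limma-voom, 0 with only the pair, 0 without the 2 Olig3 libraries, 20 without the Malat1-rich libraries and 0 to 505 with each library left out. Members passing there, 2 by edgeR, were 8, 6, 0, 0, 0 and 1 in the same settings and 0 to 5 with each library left out. Genes passing in Olig3 against Olig2, 6 by edgeR, were 140 without a filter, 82 by DESeq2, 1 by limma-voom, 2 with only the pair, 0 without the 2 Olig3 libraries and 2 to 160 with each library left out, and members passing, 2 by edgeR, were 8, 4, 0, 1, 0 and 0 to 5, with 1 without the Malat1-rich libraries. Deviations from group means correlated at -0.0634 to 0.1134 between same-numbered libraries and at -0.115 to 0.0747 between libraries of different number. These values, from 3 libraries a group, cannot tell whether a number marks a shared animal or day. Chi-square per degree of freedom between count profiles was 19.2 and 19.4 for Olig3 library 2 with Olig2 libraries 2 and 3. It was 86.1 and 112.8 for Olig3 library 2 with Olig3 libraries 1 and 3. With the replicate number as a block, 10, 0 and 8 genes and 0, 0 and 2 members passed, in the order of the comparisons above. The median over members ran from -0.55 to 0.80, from -4.54 to -3.19 and from -5.39 to -3.46 in these comparisons with each library left out, and the third was -5.66 without the Malat1-rich libraries. Log2 changes changed sign for 3 members. In Olig2 against GFP, Gbp2 was 0.28 and Gbp3 0.10 by limma-voom and Gbp3 0.47 with the replicate block, and with each library left out Irgm2 ran from -1.00009 to 0.21, Gbp2 from -0.83 to 0.57 and Gbp3 from -0.54 to 0.73. With Olig3, Gbp3 was -2.19 against GFP and -2.29 against Olig2 by limma-voom, -0.31 and -0.79 with the replicate block and -0.93 and -0.79 without the 2 Olig3 libraries, and with each library left out it ran from -1.98 to 1.03 and from -1.83 to 0.89. Of the other alternatives, RLE and upper-quartile scaling and the stricter filter reversed no member. A count of 0 bounds a level only to 0.430 to 0.560 CPM.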

Other observations

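Other genes of antigen presentation and an antiviral gene, chosen after their values were seen, were read beside the GTPases. Psmb8, an immunoproteasome subunit, had 665, 588 and 721 counts with GFP, 677, 362 and 527 with Olig2 and 1, 84 and 48 with Olig3 (edgeR log2 change of Olig3 against GFP -3.31, SE 0.85, adjusted p = 0.162). Tap1, a subunit of the peptide transporter for class I molecules, had 321, 315 and 295 counts with GFP, 238, 143 and 165 with Olig2 and 67, 7 and 0 with Olig3 (edgeR log2 change -3.43, SE 1.00, adjusted p = 0.223). In both genes every Olig3 library lay below every other library in counts. Of all tested genes, 10.0% lay below every GFP library in all Olig3 libraries, and 8.69% below every Olig2 library, in TMM-scaled CPM. Oasl2, a relative of the antiviral oligoadenylate synthetases, had 765, 420 and 1342 counts with GFP, 197, 191 and 169 with Olig2 and 366, 141 and 53 with Olig3 (edgeR adjusted p = 0.765 and 0.268 against GFP). None of the 3 passed the threshold in any comparison.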
